A study of Mus musculus with 8 samples.

Results

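The genes described here make, take up, move, store and export cholesterol, or control those steps, in the testis of male mice given valine and of control mice. The list holds 34 genes, taken by name and matched by Ensembl identifier among the 55414 genes of the expression table, and all 34 were found. They comprise 18 enzymes of synthesis (7 of the mevalonate pathway and 11 from squalene to cholesterol), 5 regulators of the SREBP system, 2 liver X receptors (LXR), 1 uptake receptor, 6 genes of transport and storage and 2 exporters. Bulk RNA of whole testis was sequenced in 4 samples labelled valine, a branched-chain amino acid, and 4 samples labelled control. The sources used here name no strain, age, dose, route or duration, and do not say that the samples were separate animals. A p-value below thus describes sample-to-sample spread, and that spread may be technical.

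Cells make cholesterol from acetyl-CoA through mevalonate, squalene and lanosterol, and SREBP transcription factors switch on these enzymes when membranes run short of sterol. SCAP carries SREBP to the Golgi for activation, INSIG proteins hold it back in the endoplasmic reticulum, and LXR, which senses oxysterols, turns on the export pumps. In the testis, Leydig cells turn cholesterol into testosterone and draw it from lipoproteins, from their own synthesis and from stored esters. Germ cells also carry the synthesis enzymes, and lanosterol demethylase is known for its high level in spermatids.

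Values were deposited as FPKM (fragments scaled to gene length and to library depth). This scaling lets levels be compared between genes. Comparisons between samples also depend on how the totals are set, and these differed between the groups. Changes were fitted for all genes with limma on log2(FPKM + 1) and called at an adjusted p below 0.05. Every fold below is taken on this scale, on which low genes change less than in FPKM. The FPKM totals were 1027662 to 1070524 in the valine samples and 944659 to 974626 in the control samples. Steps between the low values gave depths on a scale where control replicate 1 is 1.00, namely 0.866 to 0.991 in the valine samples and 0.870 to 1.00 in the control samples. The absolute depth was unknown. Markers of elongating spermatids summed to 52850 to 64880 FPKM in the valine samples and 41260 to 43680 FPKM in the control samples, and all 9 Leydig markers passed the filter, so cells of the labelled tissue were represented.

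Part of the cholesterol list was lower in valine testes and none of it was higher past the threshold. Of the 33 genes that passed a filter at a mean of 1 FPKM, 13 fell, against a background of 4.41% of all 22077 tested genes that fell. Npc1, among these 13, passed the filter only through the control samples. None rose in this limma fit, against a background of 4.32%; 20 of the 33 had an unadjusted p below 0.05, beside 5651 of all 22077 tested genes. The median change of the 33 was -0.32 on the log2 scale, beside 0.02 over all tested genes, and 26 of the 33 changes were negative, beside 10242 of all 22077. The groups did not overlap for 16 of the 33 genes, against 18.4% of all tested genes. The largest falls were those of the exporter Abca1 and the late synthesis enzymes Sc5d, Msmo1, Hsd17b7 and Dhcr7. The SREBP genes themselves, Insig2 and all synthesis enzymes from Mvk to Tm7sf2 did not pass.

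The number of calls depended on single libraries. It was 6 without control replicate 1, 7 without control replicate 2, 8 without control replicate 3 and 11 without control replicate 4. The number was 4 without valine replicate 1, 7 without valine replicate 2, 6 without valine replicate 3 and 6 without valine replicate 4. It was 7 without the expression filter, and 8 once a trend on gene length was taken out, which ended the calls of Hmgcs1, Insig1, Npc1, Scap and Soat1. All 13 genes kept a negative change in every alternative fitted. Abca1, Scarb1, Hsd17b7 and Dhcr7 passed in all of them. Rescaling the samples to equal FPKM totals shifted the median change over all genes by -0.10 (log2) and gave 14 members lower and none higher. With that scaling 15.2% of all calls were higher, against 49.5% as deposited.

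**Figure D1:**
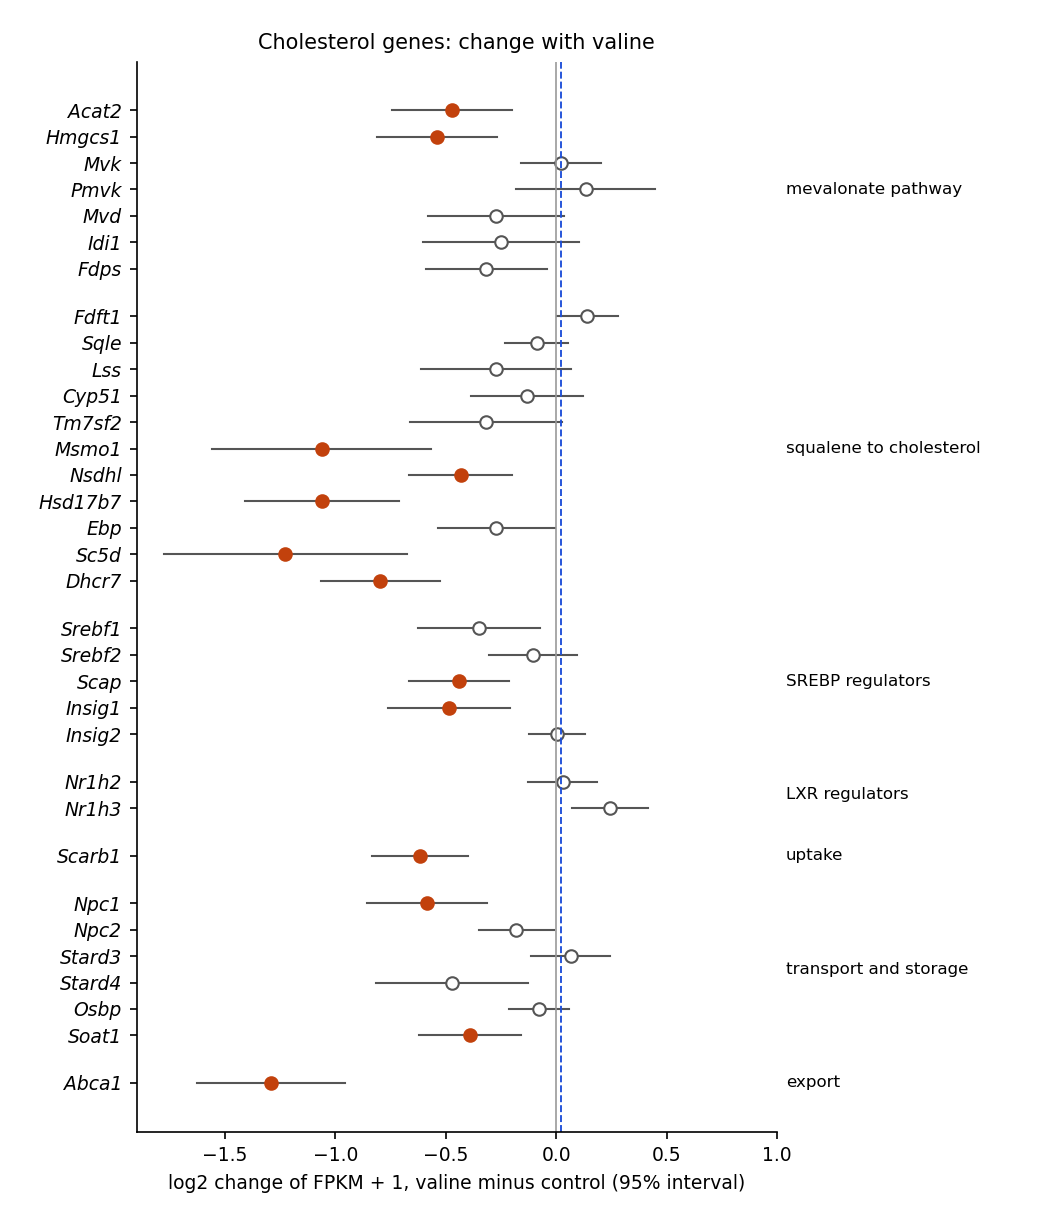
Log2 change of FPKM + 1, valine minus control, with its 95% interval for the 33 tested cholesterol genes, grouped by role. Filled points mark the 13 genes that fell, and the dashed line is the median change of all tested genes (0.02). Abca1 lies farthest left at -1.29, and no filled point lies right of 0.

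**Figure D2:**
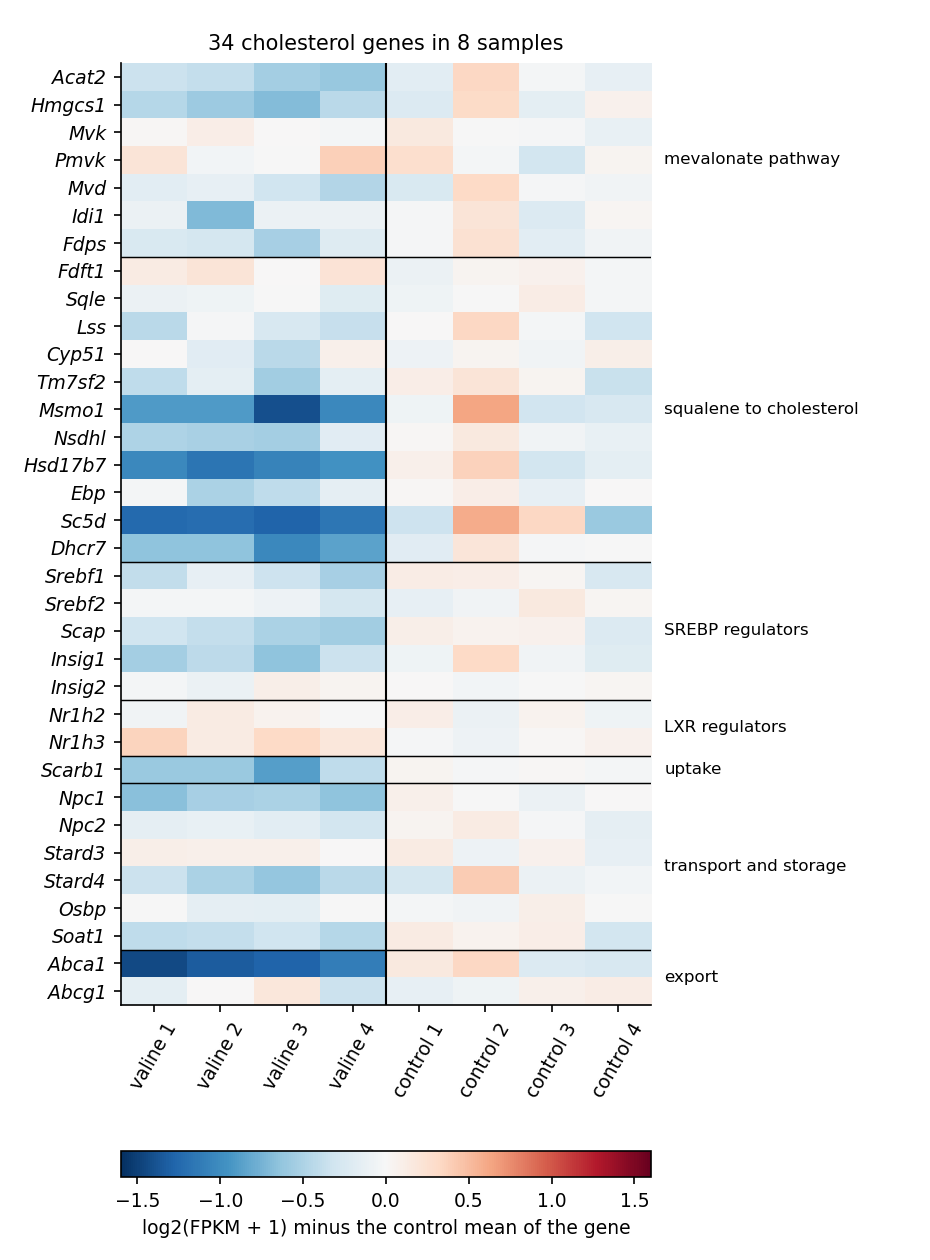
Colour gives log2(FPKM + 1) minus the control mean of the gene, for 34 cholesterol genes (rows, by role) in 4 valine samples (left) and 4 control samples (right). Abca1, Sc5d, Msmo1 and Hsd17b7 are the darkest rows of the valine side, and control replicate 2 is the reddest column among the synthesis enzymes.

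The promoters of 5 members that fell are shown as examples. RefSeq listed a start for 27 of the 34 genes, and the 250 bases before each start were searched on both strands for the core of a sterol regulatory element (TCACNCCAC), the CCAAT box (CCAAT), the GC box (GGGCGG) and the E-box (CACGTG). SREBP binds the first and also E-boxes, NF-Y binds CCAAT and SP1 binds GC boxes. The windows of Hmgcs1 (chr13:119690101-119690350, plus strand), Hsd17b7 (chr1:169969206-169969455, minus strand), Sc5d (chr9:42264301-42264550, minus strand), Insig1 (chr5:28071162-28071411, plus strand) and Abca1 (chr4:53159896-53160145, minus strand) are given on build GRCm38.p6, 5′ to 3′ on the strand of the gene. Capitals mark the motif letters on either strand, and no matches overlapped.
Hmgcs1: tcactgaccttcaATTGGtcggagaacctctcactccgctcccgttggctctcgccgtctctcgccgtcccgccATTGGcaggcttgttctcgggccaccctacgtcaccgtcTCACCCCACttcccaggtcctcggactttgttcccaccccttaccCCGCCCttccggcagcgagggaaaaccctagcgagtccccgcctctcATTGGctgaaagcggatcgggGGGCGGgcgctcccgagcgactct
Hsd17b7: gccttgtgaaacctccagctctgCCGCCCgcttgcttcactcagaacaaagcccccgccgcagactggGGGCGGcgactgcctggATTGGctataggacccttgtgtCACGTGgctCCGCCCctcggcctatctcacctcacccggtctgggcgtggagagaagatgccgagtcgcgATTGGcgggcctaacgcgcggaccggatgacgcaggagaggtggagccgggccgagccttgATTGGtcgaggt
Sc5d: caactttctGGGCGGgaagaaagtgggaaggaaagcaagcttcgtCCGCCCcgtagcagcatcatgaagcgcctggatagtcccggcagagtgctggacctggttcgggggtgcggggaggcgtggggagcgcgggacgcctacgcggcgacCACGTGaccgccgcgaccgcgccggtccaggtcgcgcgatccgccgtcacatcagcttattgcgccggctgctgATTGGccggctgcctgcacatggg
Insig1: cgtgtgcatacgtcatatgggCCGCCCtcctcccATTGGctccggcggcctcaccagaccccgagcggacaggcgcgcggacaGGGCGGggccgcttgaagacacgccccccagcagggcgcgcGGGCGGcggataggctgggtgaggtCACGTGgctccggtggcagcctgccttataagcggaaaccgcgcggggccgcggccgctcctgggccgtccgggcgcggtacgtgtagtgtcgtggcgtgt
Abca1: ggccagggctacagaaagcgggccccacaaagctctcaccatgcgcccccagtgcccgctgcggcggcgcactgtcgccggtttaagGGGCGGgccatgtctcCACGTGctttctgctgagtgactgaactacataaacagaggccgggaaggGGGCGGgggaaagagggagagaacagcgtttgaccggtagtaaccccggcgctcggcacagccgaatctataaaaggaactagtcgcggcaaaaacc

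The sterol element core was found in 2 members, Hmgcs1, which fell, and Stard3, which did not pass. Only the letters given were searched, within 250 bases, so elements that differ from them or lie elsewhere would be missed. It stood in 1.05% of 32851 promoters and 1.25% of 13256 tested genes. Among all 714 genes with a listed start that fell, it stood in 2.80%. In Hmgcs1 its first base lies 137 bases before the start. CCAAT boxes were found in 8 of 11 members that fell and in 14 of 16 that did not pass, against 33.9% of all promoters and 39.4% of 13256 tested genes. GC boxes were found in 10 of 11 and in 13 of 16, against 32.7% of promoters and 53.2% of tested genes. They stood in 63.0% of the 714 genes that fell. The E-box was found in 6 of the 11 members that fell (Abca1, Dhcr7, Hsd17b7, Insig1, Sc5d and Scap) and in 0 of the 16 that did not pass. It stood in 6.02% of all promoters and 8.76% of tested genes, and in 9.24% of all 714 genes with a listed start that fell with valine. Acat2, Msmo1, Nsdhl and Soat1 also fell, held neither the E-box nor the sterol element core, and are not among the windows printed. No window was listed for Abcg1, Fdft1, Fdps, Npc1, Scarb1, Sqle and Stard4. Genes with several starts, such as Dhcr7 and Scap, were counted when any of them held the letters. These are letter matches, which do not tell which factor binds, and binding was not measured.

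At the entry of the pathway 2 of 7 enzymes fell. Hmgcs1, which makes HMG-CoA, had 31.6, 29.0, 26.7 and 32.1 FPKM in valine samples 1 to 4, against 37.4, 54.2, 39.3 and 45.7 FPKM in control samples 1 to 4. All valine samples lay below all control samples, and control replicate 2 was the highest. The change was -0.54 ± 0.119 on the log2 scale (SE, limma adjusted p = 0.0296), and the adjusted p ranged up to 0.0717 over the alternatives, with the call lost without control replicate 4 or any valine sample. Acat2, a thiolase that condenses acetyl-CoA, had 16.9, 16.5, 14.6 and 13.95 FPKM in the valine samples, against 19.3, 27.6, 21.4 and 19.7 FPKM in the control samples. The groups were again separate, with control replicate 2 highest. Acat2 changed by -0.47 ± 0.119 (SE, log2 scale, limma adjusted p = 0.0465), and its call was lost when any 1 library was left out (limma adjusted p of up to 0.1001 over the alternatives).

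The mevalonate enzymes that follow did not pass. Mvk, which phosphorylates mevalonate, averaged 9.07 ± 0.394 FPKM in valine and 8.93 ± 0.801 FPKM in control testes (SD, n = 4 each). The 95% interval of its change ran from -0.16 to 0.20 on the log2 scale. Pmvk, the next kinase, averaged 16.6 ± 2.49 and 15.0 ± 2.54 FPKM in valine and control testes, and Mvd, which makes isopentenyl diphosphate, 6.002 ± 0.732 and 7.51 ± 1.44 FPKM. Idi1, the isomerase of isopentenyl diphosphate, had 33.96 FPKM in valine replicate 2 and 52.6 to 52.7 FPKM in the other valine samples, against 48.1 to 65.3 FPKM in control samples. Fdps, which makes farnesyl diphosphate, averaged 3.83 ± 0.461 FPKM in valine and 5.02 ± 0.752 FPKM in control testes. Its groups did not overlap, but the change of -0.32 did not pass (limma adjusted p = 0.144).

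The 5 enzymes after farnesyl diphosphate, which include the most abundant one of the route, did not pass either. Fdft1, squalene synthase, was the most abundant member with 227 ± 14.9 FPKM in valine and 206 ± 10.8 FPKM in control testes (SD, n = 4 each; log2 change 0.14, limma adjusted p = 0.189). Cyp51, lanosterol demethylase, averaged 56.1 ± 8.76 FPKM in valine and 61.0 ± 3.73 FPKM in control testes, and the 95% interval of its change was -0.38 to 0.12. Sqle, which oxidises squalene, averaged 48.8 ± 2.79 FPKM in valine and 51.9 ± 3.02 FPKM in control testes. Lss, which closes the ring to lanosterol, averaged 6.80 ± 1.00 and 8.49 ± 1.77 FPKM in valine and control testes, and the sterol reductase Tm7sf2 5.06 ± 0.818 and 6.59 ± 1.22 FPKM. The groups overlapped for each of these 5 genes.

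Late enzymes, which strip the methyl groups of lanosterol products and finish cholesterol, held 5 of the 7 falls of the route. The first of them, the methyl oxidase Msmo1, had 4.97, 4.99, 3.23 and 4.48 FPKM in the valine samples, against 9.67, 16.4, 8.10 and 8.35 FPKM in the control samples. Every valine sample was below every control sample, and control replicate 2 stood well above the other controls. Msmo1 was 2.09-fold lower (log2 change -1.06 ± 0.217 SE, limma adjusted p = 0.0225), but did not pass without control replicate 1 or valine replicate 1, 3 or 4 (limma adjusted p of up to 0.0593). Its partner Nsdhl, the dehydrogenase of the same demethylation complex, had 14.2, 13.9, 13.6 and 17.9 FPKM in the valine samples, against 20.6, 22.9, 19.6 and 18.6 FPKM in the control samples. Valine replicate 4 came close to the lowest control. Nsdhl fell by 0.43 on the log2 scale (SE 0.102, limma adjusted p = 0.0365), but did not pass without control replicate 1, 2 or 3 or valine replicate 1, 2 or 3 (limma adjusted p of up to 0.0955).

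Hsd17b7, the ketone reductase of that complex, had 1.83, 1.56, 1.75 and 1.96 FPKM in the valine samples, against 5.13, 6.45, 3.71 and 4.201 FPKM in the control samples. The highest valine sample was below the lowest control sample by a wide margin. Hsd17b7 fell by 1.06 on the log2 scale (SE 0.152, limma adjusted p = 0.00694), with a limma adjusted p of 0.0366 at most over the alternatives. All 3 listed enzymes of the demethylation complex thus fell. Ebp, the isomerase that acts next, averaged 8.96 ± 1.504 FPKM in valine and 10.9 ± 0.795 FPKM in control testes (SD, n = 4 each) and did not pass (log2 change -0.27, limma adjusted p = 0.186).

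Sc5d, the desaturase that follows, had 5.79, 5.90, 5.62 and 6.24 FPKM in the valine samples, against 11.8, 23.2, 19.3 and 9.69 FPKM in the control samples. The control samples varied widely (coefficient of variation 39.6%), while the valine samples lay close together (4.44%). Sc5d was 2.34-fold lower (log2 change -1.23 ± 0.241 SE, limma adjusted p = 0.0195, and 0.0552 without valine replicate 1). Dhcr7, which makes cholesterol in the last step, had 7.22, 7.22, 5.29 and 6.12 FPKM in the valine samples, against 10.3, 13.8, 11.8 and 11.9 FPKM in the control samples. The groups were separate in each late enzyme but Ebp. Dhcr7 was 1.74-fold lower (log2 change -0.80 ± 0.118 SE, limma adjusted p = 0.00791), and passed in all alternatives (limma adjusted p of at most 0.0315).

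Seen along the route, a division made after the values were known, both first enzymes fell, 0 of the 10 enzymes from Mvk to Tm7sf2 passed in limma (2 had an unadjusted p below 0.05), and 5 of the 6 from Msmo1 to Dhcr7 fell. The median changes of these stretches were -0.50, -0.19 and -0.93 on the log2 scale. Mean levels over the 8 samples were 4.42 to 216.4 FPKM from Mvk to Tm7sf2 and 3.33 to 17.7 FPKM from Msmo1 to Dhcr7. Control replicate 2 was the highest of all 8 samples for 13 of the 18 enzymes and for all 7 that fell. Valine replicate 3 was the lowest for 8 of the 18 and for 5 of the 7.

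**Figure D3:**
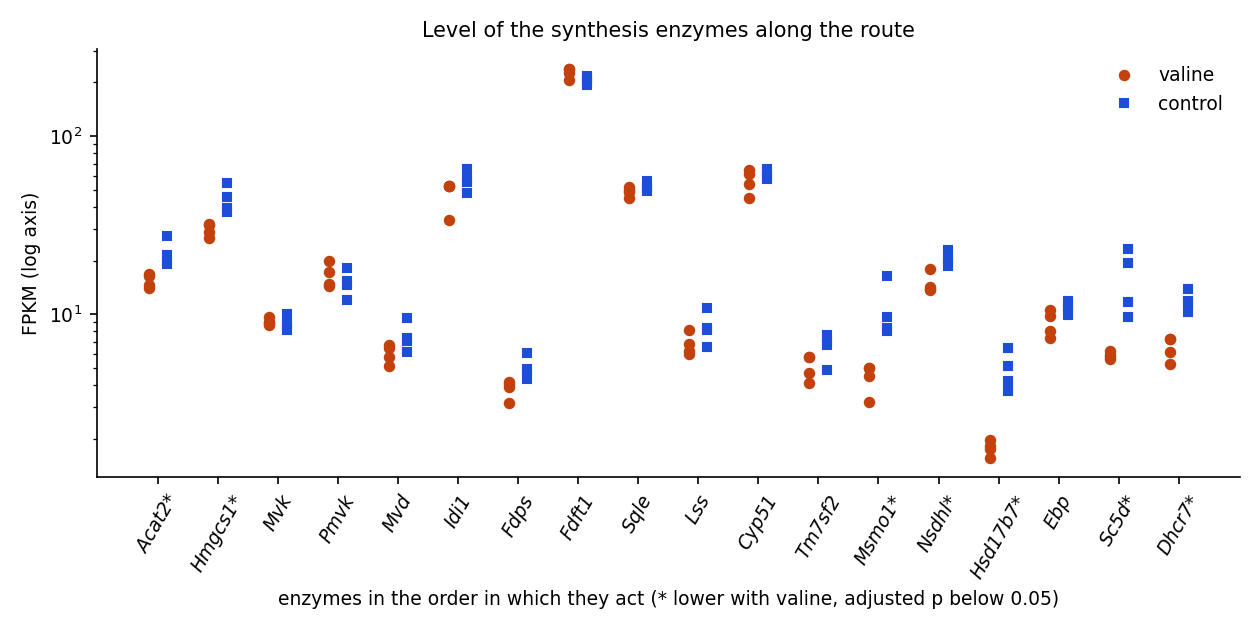
FPKM on a log axis of the 18 synthesis enzymes in the order in which they act, with 4 valine samples (circles, left) and 4 control samples (squares, right) each. Asterisks mark the 7 enzymes that fell: the first 2 and 5 of the last 6, while Fdft1, Sqle and Cyp51 in the middle stand highest and overlap between the groups.

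Of the 5 genes of the SREBP system, 2 fell, both of them partners of SREBP. Insig1, which retains SCAP when sterols are ample, had 11.05, 12.1, 10.2 and 12.8 FPKM in the valine samples, against 15.8, 20.9, 15.8 and 14.3 FPKM in the control samples. The groups did not overlap, and control replicate 2 was again highest. The change of Insig1 was -0.49 ± 0.122 on the log2 scale (SE, limma adjusted p = 0.0445), and of the 8 fits that left out 1 library it passed only in the one without control replicate 4 (limma adjusted p of up to 0.107 over the alternatives). Scap, the escort of SREBP, had 6.57, 6.27, 5.65 and 5.46 FPKM in the valine samples, against 9.09, 8.81, 8.97 and 7.14 FPKM in the control samples. The samples were separate, with control replicate 4 nearest to the valine group. Scap fell by 0.44 on the log2 scale (SE 0.0990, limma adjusted p = 0.0313), and was also lost without any 1 library other than control replicate 4 (limma adjusted p of up to 0.0877).

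Insig2, the paralog of Insig1, averaged 39.5 ± 2.25 FPKM in valine and 39.4 ± 0.932 FPKM in control testes (SD, n = 4 each). Its change was near 0, with a 95% interval of -0.12 to 0.13. The ratio of Insig1 to Insig2 was 0.242 to 0.329 in the valine samples and 0.353 to 0.547 in the control samples. The ranges did not overlap; this and the other ratios of paralogs or partners below were chosen after the values were seen and are given without a test. Srebf2, the SREBP most tied to cholesterol synthesis, averaged 18.6 ± 1.56 FPKM in valine and 20.1 ± 1.84 FPKM in control testes and did not pass (limma adjusted p = 0.492). Srebf1, the SREBP most tied to fatty acid synthesis, averaged 5.07 ± 0.693 FPKM in valine and 6.73 ± 0.886 FPKM in control testes (log2 change -0.35, limma adjusted p = 0.113). The ratio of Srebf1 to Srebf2 was 0.249 to 0.305 in the valine samples and 0.265 to 0.403 in the control samples, and the ranges overlapped.

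Neither of the 2 LXR genes passed in limma, and 1 had an unadjusted p below 0.05. Nr1h3, LXR alpha, had 13.9, 11.7, 13.5 and 12.2 FPKM in the valine samples, against 10.5, 10.1, 10.8 and 11.3 FPKM in the control samples. All valine samples were above all control samples, opposite to the direction of the export gene Abca1, and the change of 0.24 did not pass (limma adjusted p = 0.0834). Nr1h2, LXR beta, had 30.0, 34.4, 32.5 and 31.1 FPKM in the valine samples, against 33.8, 29.3, 32.6 and 29.7 FPKM in the control samples, and the groups overlapped. The ratio of Nr1h3 to Nr1h2 was 0.342 to 0.463 in the valine samples and 0.312 to 0.380 in the control samples, and these ranges also overlapped. With equal totals the change of Nr1h2 was -0.08 and that of Insig2 -0.11, while Nr1h3 stayed positive at 0.14.

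Both members that move cholesterol across the cell surface and passed the filter fell. Scarb1, the receptor that takes cholesteryl ester from HDL, had 28.3, 28.3, 23.0 and 32.4 FPKM in the valine samples, against 44.4, 42.5, 43.6 and 42.1 FPKM in the control samples. The control samples lay within a narrow band (coefficient of variation 2.46%), and the highest valine sample was well below it. Scarb1 was 1.53-fold lower (log2 change -0.62 ± 0.0944 SE, limma adjusted p = 0.00860), and the limma adjusted p was 0.0356 at most over the alternatives. Abca1, the pump that loads cholesterol onto apolipoproteins, had 4.17, 4.57, 4.77 and 5.50 FPKM in the valine samples, against 14.6, 16.6, 11.03 and 10.8 FPKM in the control samples. Even the highest valine sample was far below the lowest control sample. Abca1 was 2.45-fold lower (log2 change -1.29 ± 0.147 SE, limma adjusted p = 0.00362), and its change lay between -1.44 and -1.17 over the alternatives. Abcg1, the pump for HDL, was the only member below the filter. It had 0.516, 0.710, 0.918 and 0.334 FPKM in the valine samples, against 0.553, 0.615, 0.791 and 0.839 FPKM in the control samples, and the groups overlapped (two-sided exact permutation p = 0.571, n = 4 each).

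**Figure D4:**
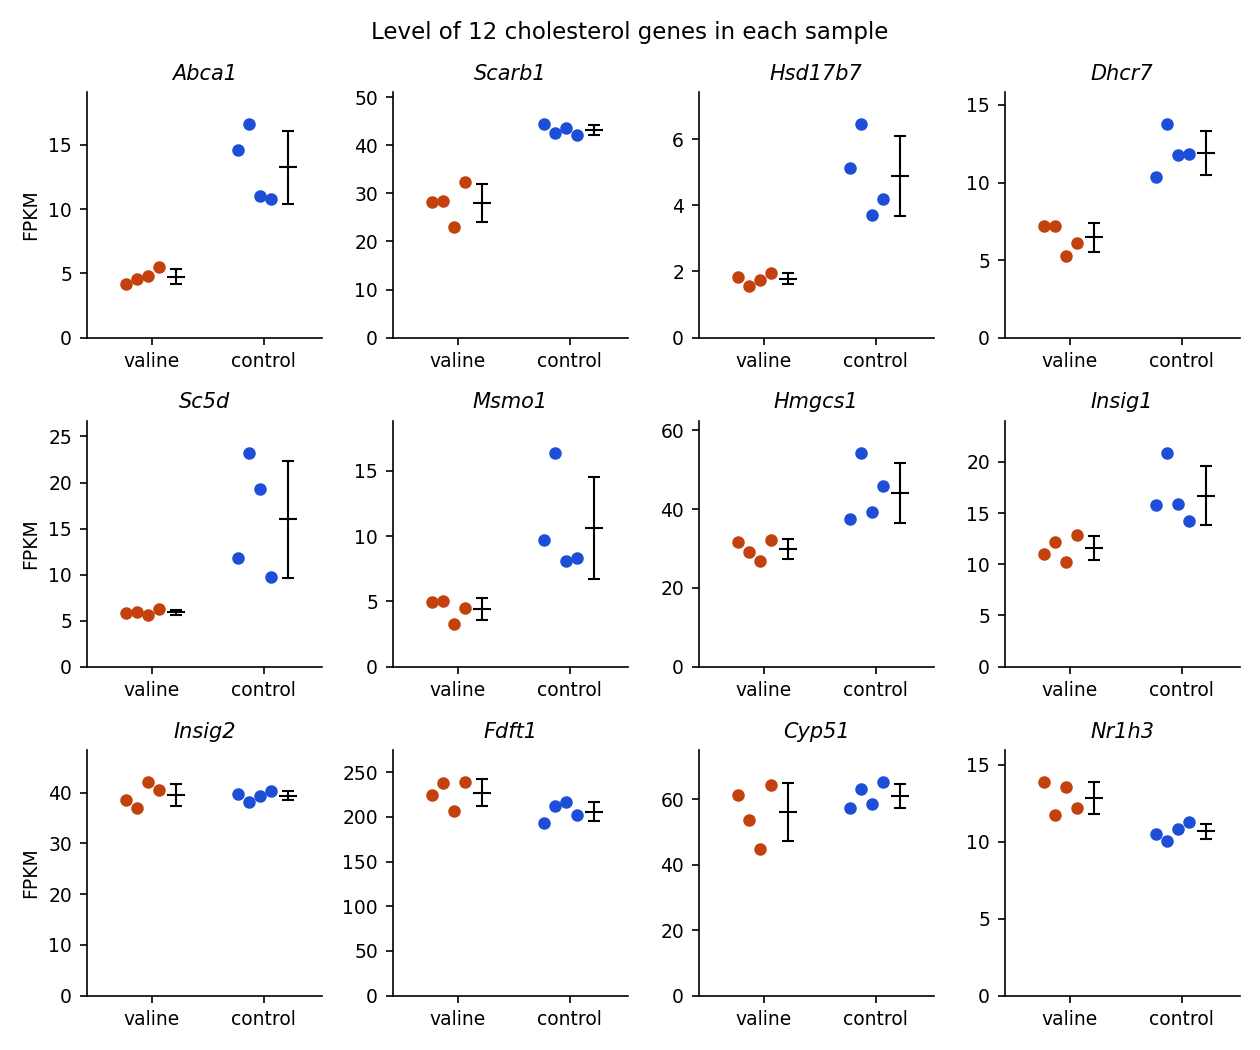
FPKM of 12 cholesterol genes in each valine sample (left) and control sample (right), with the mean and SD of each group beside the points and axes starting at 0. The groups are separate for Abca1, Scarb1, Hsd17b7, Dhcr7, Sc5d, Msmo1, Hmgcs1, Insig1 and Nr1h3, and overlap for Insig2, Fdft1 and Cyp51.

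Among 6 genes of transport and storage 2 fell. Npc1, the membrane protein that lets cholesterol out of lysosomes, had 0.732, 0.903, 0.941 and 0.766 FPKM in the valine samples, against 1.91, 1.75, 1.58 and 1.77 FPKM in the control samples. The groups were separate at a low level, and the change of -0.58 ± 0.119 on the log2 scale (SE, limma adjusted p = 0.0223) was -0.99 with a pseudocount of 0.1. Npc1 passed the filter only through the control samples. Its call was lost without control replicate 1 or 2 or valine replicate 1 or 4 (limma adjusted p of up to 0.0698). Soat1, which esterifies cholesterol for storage, had 12.6, 12.8, 13.5 and 12.1 FPKM in the valine samples, against 18.7, 17.7, 18.4 and 13.7 FPKM in the control samples. Control replicate 4 came close to the valine samples. Soat1 fell by 0.39 on the log2 scale (SE 0.101, limma adjusted p = 0.0492), and passed with control replicate 4 left out but with no other single library left out (limma adjusted p of up to 0.145 over the alternatives).

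The other 4 genes of this group did not pass. Npc2, the soluble lysosomal partner of Npc1, averaged 18.6 ± 1.00 FPKM in valine and 21.3 ± 1.76 FPKM in control testes (SD, n = 4 each; limma adjusted p = 0.176). The ratio of Npc1 to Npc2 was 0.0384 to 0.0503 in the valine samples and 0.0751 to 0.0926 in the control samples. Stard4, a cytosolic sterol carrier, had 3.69 to 4.72 FPKM in the valine samples and 4.95 to 8.60 FPKM in the control samples. Its groups were separate but it missed the threshold (limma adjusted p = 0.0898), which it passed with equal totals (limma adjusted p = 0.0453). Stard3, a carrier of late endosomes, averaged 10.5 ± 0.299 FPKM in valine and 9.97 ± 0.921 FPKM in control testes, and Osbp, which moves cholesterol to the Golgi, 67.7 ± 4.08 and 71.5 ± 3.54 FPKM. The ratio of Stard4 to Stard3 was 0.348 to 0.442 in the valine samples and 0.450 to 0.917 in the control samples.

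By mean level over the 8 samples Fdft1 (216.4 FPKM) led the list, followed by Osbp (69.6), Cyp51 (58.6), Idi1 (52.3) and Sqle (50.4), and Hsd17b7 (3.33), Npc1 (1.29) and Abcg1 (0.660) closed it. Neighbours in this order differed by more than the sum of their SDs within groups at 6 places, below Fdft1, Osbp, Sqle, Nr1h2, Hsd17b7 and Npc1. The 5 most abundant members all failed to pass, and the 13 that fell had means between 1.29 and 37.0 FPKM.

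A further 62 genes of sterol handling were listed to set the members in their pathway, of which 61 were matched and 47 passed the filter. Of these 8 fell and none rose, beside 4.41% of all 22077 tested genes that fell and 4.32% that rose. Their median change was -0.13, beside 0.02 over all tested genes. An unadjusted limma p below 0.05 was reached by 19 of the 47, beside 5651 of all 22077. Valine and control values were fully separate in 20 of the 47, beside 18.4% of all tested genes. The largest falls were those of Lcat, which esterifies cholesterol in plasma (0.518 ± 0.217 FPKM in valine and 2.92 ± 1.11 FPKM in control testes), and Cav1, a caveolar protein that binds cholesterol (2.08 ± 0.286 and 6.46 ± 1.36 FPKM in valine and control testes, SD, n = 4 each). Their limma adjusted p values were 0.0172 and 0.00358. Lcat, and Nceh1 below, passed the filter only through the control samples. Nceh1, a cholesteryl ester hydrolase, fell to 0.714 ± 0.201 FPKM in valine testes, against 2.13 ± 0.397 FPKM in control testes, and Cyp27a1, a mitochondrial sterol hydroxylase, to 5.36 ± 1.22 FPKM in valine testes, against 10.4 ± 2.56 FPKM in control testes. The endocytic receptor Lrp1 fell by 0.81, the transporter Abca2 by 0.58, the sterol carrier Scp2 by 0.30 and the transfer protein Gramd1b by 0.23, all on the log2 scale, with limma adjusted p values in this order of 0.0271, 0.0182, 0.0442 and 0.0160. In limma none of 4 further synthesis genes passed, 0 of them with an unadjusted p below 0.05, and none of 10 further SREBP and LXR regulators passed, 3 of them with an unadjusted p below 0.05. Of these regulators, named after their values were seen, the SREBP protease Mbtps1 passed downward with a filter at 5 FPKM (limma adjusted p = 0.0458), with equal totals (0.0201) and with array weights (0.0473). Erlin1 and Erlin2 passed downward with equal totals, and Mbtps2 without the mean-variance trend (limma adjusted p = 0.0416, 0.0246 and 0.0404 in this order). The count of 8 was 3 without control replicate 1, 5 without control replicate 2 or 3, 4 without valine replicate 1, 5 without valine replicate 4, 5 without the filter, 5 with the length trend taken out, and 15 with equal totals. Cav1 passed in all alternatives, while Lcat and Abca2 were lost without control replicate 1 (limma adjusted p = 0.0556 and 0.0580) and Gramd1b without valine replicate 1 (limma adjusted p = 0.0544). With the length trend taken out the change of Gramd1b was -0.11 (limma adjusted p = 0.169). Scp2, Cyp27a1 and Lrp1 were each lost under at least 5 of the 8 fits that left out 1 library.

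Markers of cells that handle much cholesterol moved in the same samples. All 9 Leydig markers fell, with a median change of -1.73, and their sum was 501.6 to 792.9 FPKM in the valine samples and 1635 to 2310 FPKM in the control samples. Valine replicate 3 had the lowest Leydig sum and control replicate 2 the highest, the same libraries that were most often lowest and highest among the synthesis enzymes. Of 9 macrophage markers 5 fell (sum 47.5 to 63.2 FPKM in valine and 107.3 to 129.3 FPKM in control samples), of 6 stromal markers 4 fell (16.3 to 20.25 FPKM in valine and 36.7 to 66.3 FPKM in control samples) and of 5 tested endothelial markers 4 fell (12.96 to 14.5 FPKM in valine and 24.7 to 30.2 FPKM in control samples). Control replicate 2 was also highest in the macrophage sum, and valine replicate 3 lowest in the stromal sum. Other libraries held the remaining extremes of these lists. Valine replicate 2 was lowest for macrophages and valine replicate 1 for endothelial markers, and control replicate 1 was highest for stromal and endothelial markers. Of 9 markers of elongating spermatids 7 rose, with a median of 0.43. In bulk tissue, fewer cells of a type and less RNA per cell cannot be told apart, and the part of these cells in the changes of the cholesterol genes was not tested.

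Among the other lists, of 8 Sertoli markers 1 rose (sum 497.4 to 540.8 FPKM in valine and 500.0 to 579.2 FPKM in control samples), and of 8 spermatocyte markers 1 rose and 1 fell (1312 to 1368 FPKM in valine and 1295 to 1382 FPKM in control samples). Of 8 round spermatid markers 3 rose and 1 fell (2014 to 2289 FPKM in valine and 2053 to 2266 FPKM in control samples), and of 6 spermatogonial markers 2 fell (97.1 to 110.9 FPKM in valine and 87.6 to 106.1 FPKM in control samples). Of 6 tested adipocyte markers 1 fell. The 8 listed summed to 33.9 to 41.6 FPKM in the valine samples. The sum was 93.6 FPKM in control replicate 1 and 31.9 to 42.0 FPKM in the other control samples. Adipoq made up most of it in every sample other than control replicate 1. Plin1, the marker that fell, had 0.339 to 0.843 FPKM in valine and 1.23 to 2.90 FPKM in control samples. Cfd (0 to 0.152 against 0.325 to 29.8 FPKM) and Car3 (0 to 0.196 against 0.261 to 14.6 FPKM) also did not overlap. These 3 passed the filter only through the control samples, and the groups overlapped for Adipoq, Lep, Retn, Fabp4 and Cidec. Cfd was listed at 0 in 3 valine samples and Car3 in 2. With control replicate 1 left out, Abca1, Scarb1, Hsd17b7, Sc5d, Dhcr7 and Hmgcs1 passed, and Acat2, Insig1, Msmo1, Npc1, Nsdhl, Scap and Soat1 did not. The part of adipocyte RNA in the result was not tested. None of 9 transcripts of the mitochondrial genome passed in limma, 4 of them with an unadjusted p below 0.05.

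**Figure D5:**
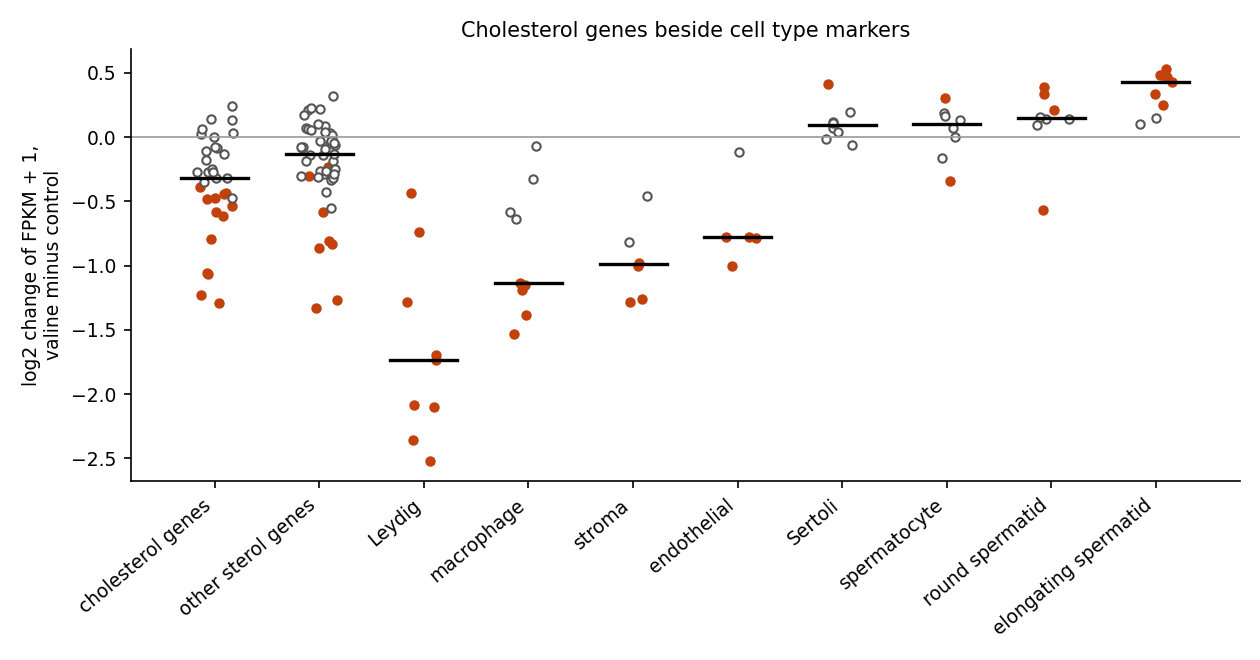
Log2 change of FPKM + 1, valine minus control, of each tested gene in the cholesterol list, the further sterol genes and 8 lists of cell markers, with the median of each list as a bar and filled points for genes past the threshold. The cholesterol median of -0.32 lies between the Leydig median of -1.73 and the elongating spermatid median of 0.43.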

How the data were processed

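RNA of whole testis from 4 valine and 4 control samples was measured by RNA sequencing. The deposited table holds FPKM per gene as computed by the authors. The submitters' processing notes name HISAT2 and the build GRCm39. Which quantifier, annotation release, strand setting or filters they used is not given in the sources used here. Strand being unknown, reads of overlapping antisense genes could be included. The table's 8 columns were matched to samples by group name and number, and 0 sample columns were left unused. No 2 samples were identical.

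Symbols came from GENCODE vM21 and RefSeq GRCm38.p6 by Ensembl identifier and named 52081 genes. The table gives no coordinates, and those printed are of the RefSeq promoter windows. A mean of 1 FPKM or more over the 8 samples was required, and values were analysed as log2(FPKM + 1) with limma 3.58.1 in R 4.3.3 (treatment as the only term, mean-variance trend, two-sided, Benjamini-Hochberg over all 22077 tested genes, threshold 0.05). The fit was also run on simulated data with independent noise for each gene and sample. Those data held no differences shared by the genes of a sample, so they do not bear on such differences. The member below the filter was compared by exact permutation over 70 arrangements.

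Every member was described. Values per sample were given for members past the threshold, or for the 2 with the smallest p in a role without any, and further sterol genes were named when past it. The members and lists were chosen with earlier results of these data known. The list of further sterol genes is not complete. Alternatives changed the pseudocount, filter, scaling, gene-length trend (loess span 0.3), moderation, weights, replicate block and samples.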

Additional observations from a re-analysis of the deposited data

Results flagged for a closer look

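Within a group of 4 samples, a value was taken up when its gap to the nearest other sample was above the 95% critical share of the group's range (Dixon's rule). Of 84 groups examined, 3 were taken up, where chance gives about 1 in 20. Idi1 had 33.96 FPKM in valine replicate 2 and 52.6 to 52.7 FPKM in the other valine samples. Nsdhl had 17.9 FPKM in valine replicate 4 and 13.6 to 14.2 FPKM in the other valine samples. Scap had 7.14 FPKM in control replicate 4 and 8.81 to 9.09 FPKM in the other control samples.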

How the results depend on the processing

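All 13 cholesterol genes that fell kept a negative change in every alternative in which they were fitted, and 4 passed in all of them (Abca1, Scarb1, Hsd17b7 and Dhcr7). The count of 13 became 7 without an expression filter, 8 after removal of the length trend and 6 with the replicate block. With 1 library left out it was 4 to 11. No member was higher past the threshold in any alternative. The 8 further sterol genes that fell became 5 without a filter, 15 with equal totals and 5 after removal of the length trend, which also put 1 gene, Osbpl1a (named after its values were seen), past the threshold upward. They were 2 with the replicate block and 3 to 7 with 1 library left out. Over all genes 974 fell and 954 rose. With equal totals 2022 were lower and 363 higher. The higher count was 568 without a filter, 398 with quantile normalisation, 488 after removal of the length trend and 503 without the mean-variance trend. The share of higher genes among calls was 49.5% as deposited and 27.9% with quantile normalisation. With 1 library left out 461 to 802 were lower and 381 to 795 higher. Abcg1 did not pass in any of its alternatives, of which those with a library left out had 4 against 3 samples. The cause of these shifts was not tested. Same-numbered samples deviated together with correlations across genes of -0.017, -0.040, 0.104 and 0.111. Valine replicates 3 and 4 correlated best with the control sample of their own number, and valine replicates 1 and 2 did not. These values cannot show whether samples were paired in handling, which the sources used here do not say. The main fit used no pairing. With the replicate block 489 genes were lower and 581 higher, with 6 members and 2 further sterol genes lower. Without counts, the precision of low members such as Abcg1 and Npc1 is unknown.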
